A study of Mus musculus with 6 samples.

Results

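Chromatin remodelers use the energy of ATP to slide, evict or exchange nucleosomes and so set which stretches of DNA can be read. The BAF complex, in which ARID1B is a subunit, is built around a single ATPase, a shared core and exchangeable subunits that set its variant, and most of its positions can be filled by any of several paralogs. The CHD, ISWI and INO80-type families are separate remodelers with their own partners. In the incisor, which grows throughout life, mesenchymal stem cells (MSCs) near the neurovascular bundle feed transit-amplifying cells and then odontoblasts and pulp. The genes described here are 38 remodeler subunits outside the ARID family, chosen by name: BAF core and variant subunits, CHD proteins, ISWI ATPases, INO80-type ATPases and the remodelers *Hells* and *Atrx*. Of these, 37 were among the 19270 genes of the series and *Actl6b* was not analysed here.

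The series holds RNA-seq of the proximal incisor from 3 control and 3 mutant mice, which received tamoxifen at 1 month of age and were sampled 4 days later. The methods describe the dissected tissue as mesenchymal. The mutants carried *Gli1-CreER* and floxed *Arid1b* alleles (*Gli1-CreER;Arid1b* fl/fl), so that recombination starts in *Gli1*-expressing cells, which give rise to mesenchymal and epithelial cells, and the tissue keeps cells in which the alleles are intact. The controls received tamoxifen as well, and were tamoxifen-injected *Arid1b* fl/fl mice per the methods but wild type per the labels. For each gene the data give the authors' mean of each group in normalized signal, and no value of a single mouse was analysed here, so no difference below can be set against the spread between mice and none was tested. The deposited summary of the libraries, read as described with the processing, gave about 37123643 to 49594469 reads per library on these genes. In whole tissue, fewer cells of a type and less RNA per cell cannot be told apart.

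The targeted gene *Arid1b* had an authors' mean of 97.6 in controls and 38.0 in mutants, a log2 ratio of mutant over control of -1.36. Each remodeler gene outside the ARID family described here differed less between the groups than *Arid1b*. None of the 37 was over 1.5-fold higher or lower in the mutants, the fold set in the study's methods. Of all genes, 7.37% were over 1.5-fold higher and 5.8% were over 1.5-fold lower. Many of those genes have low values, and among the 10311 genes whose mean over both groups was at least 10 the shares were 2.15% and 0.912%. Of the 37 genes, 35 reached that mean. At shares this low, a count of none among 35 genes is near that of all genes, so nothing is read from it. At a fold of 1.2, which 6.54% of these 10311 genes passed upwards and 6.37% downwards, *Chd7* was the single one of the 35 on the higher side and there was none on the lower side. *Chd7* reached a mean of 10 only through the mutants (9.36 in controls, 12.4 in mutants), and *Dpf1* and *Dpf3*, which were over 1.2-fold lower, did not reach it, so nothing is read from these counts against the shares of all genes.

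The log2 ratios of the 37 genes ran from -0.44 (*Dpf3*) to 0.41 (*Chd7*), with a median of -0.04 beside a median of 0.00 over all genes. The means of 29 genes differed by less than 10% between the groups. The share of all genes within 10% was not computed, so nothing is read from this count. Among genes at or above a mean of 10, 26.0% lay at least as far from 0 as *Srcap*, which was 10.5% lower. Of the 35 genes at or above a mean of 10, 22 (62.9%) lay between the lower and upper quartiles of all genes of that level, -0.08 and 0.08, which hold 50% of those genes by definition. The mutant mean was the higher one for 15 of 37 genes (40.5%), beside 50.5% of all genes. This split depends on the scaling: when both groups were set to the same summed signal, which moved every log2 ratio up by 0.06, 23 of 37 were higher in the mutants. The splits of the core, variant and CHD genes given below depend on the scaling as well.

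**Figure D1:**
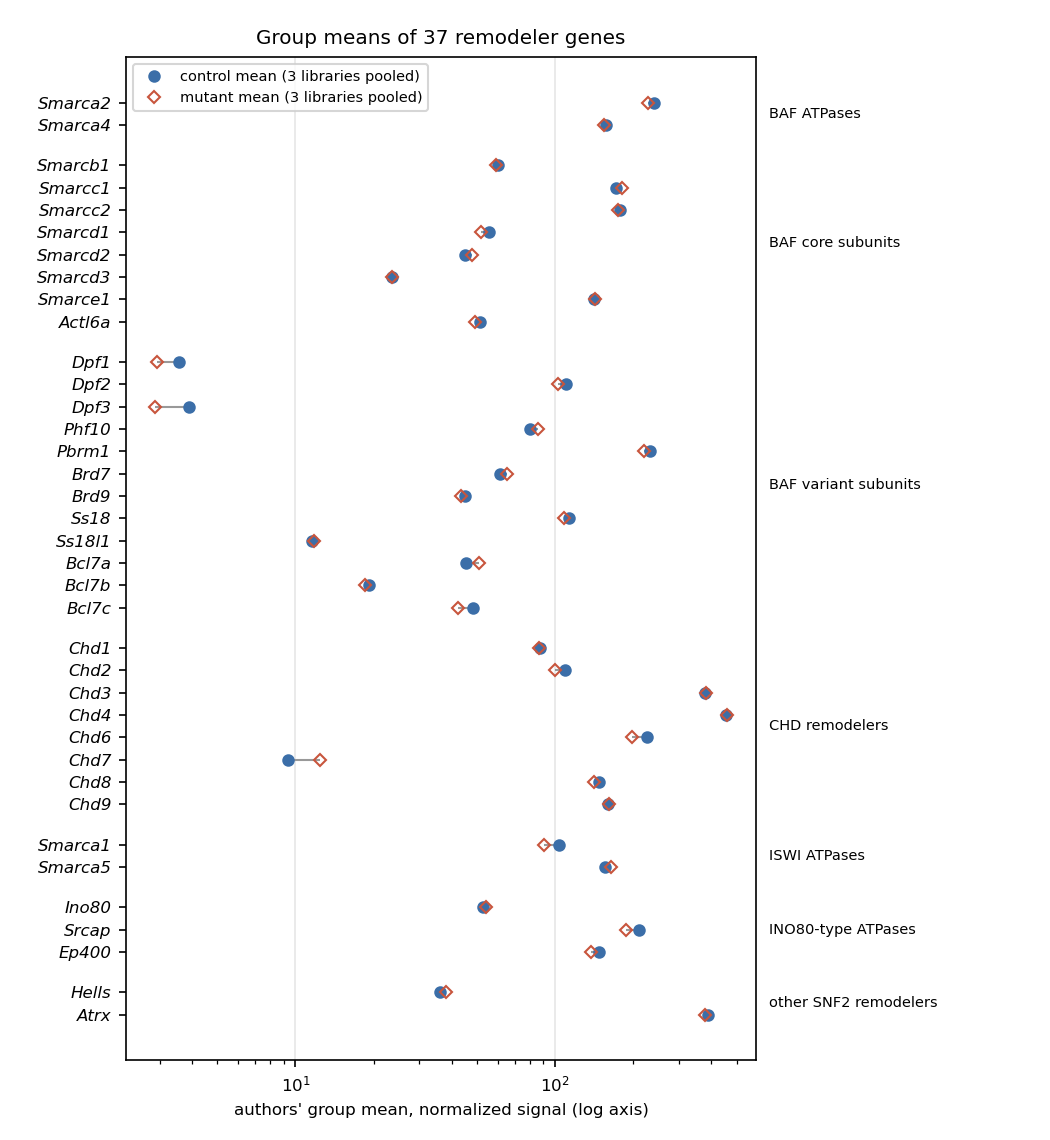
Authors' group means (normalized signal, log axis) of 37 remodeler genes in controls (filled circles) and mutants (open diamonds), ordered by role. Each symbol is the mean of 3 libraries, for which no spread between mice was analysed. The symbols lie close together for most genes and are farthest apart for *Dpf1*, *Dpf3* and *Chd7*, which have the lowest control means.

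**Figure D2:**
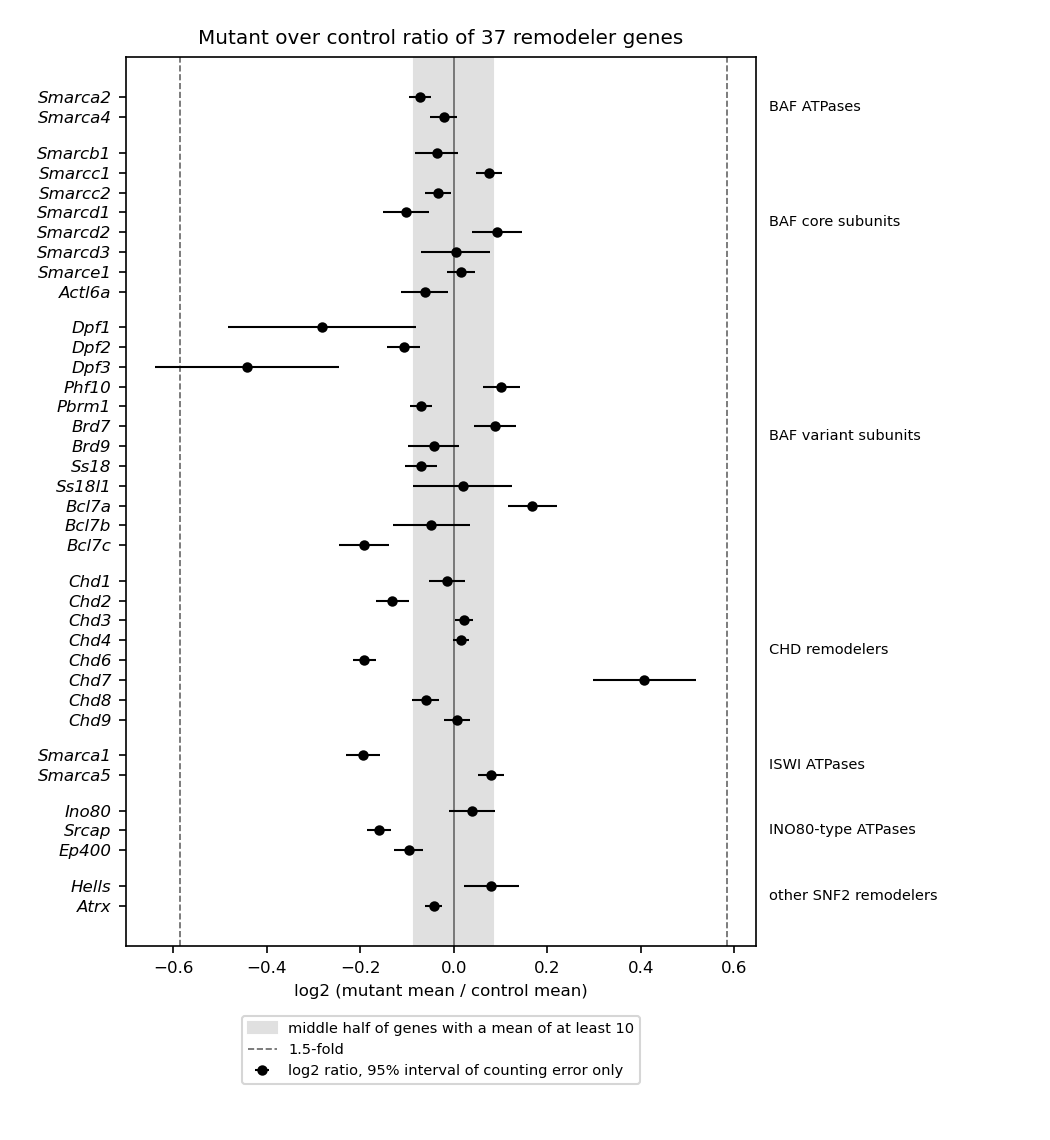
Log2 ratio of the mutant over the control mean of each gene, with a 95% interval that covers counting error only and not the spread between mice. The grey band is the range between the lower and upper quartiles of genes at or above a mean of 10, and the dashed lines mark 1.5-fold, which no gene passed.

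The BAF complex holds one of a pair of ATPases, *Smarca4* (BRG1) or *Smarca2* (BRM). *Smarca4* (chromosome 9 of GRCm38, 21616169 to 21704230) had means of 156.9 in controls and 154.6 in mutants. *Smarca2* (chromosome 19, 26605050 to 26778322) had means of 239.5 and 227.8, a log2 ratio of -0.07. Levels of different genes are comparable only per length, and per kilobase of exons *Smarca4* stood at 24.2 and *Smarca2* at 16.8 in the controls. *Smarca4* thus made up 59.1% of the summed level of the pair in controls and 59.9% in mutants. Which of the pair led depends on the length used, since with the longest transcript in place of all exons *Smarca4* had 37.8% and 38.7%.

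The core subunits hold the complex together. Of the 8 measured, 4 had the higher mean in mutants and 4 the lower, with a median log2 ratio of -0.01. *Smarcb1*, which contacts the nucleosome, had means of 60.5 in controls and 59.0 in mutants. The scaffold paralogs *Smarcc1* and *Smarcc2* had log2 ratios of 0.08 and -0.03. *Smarcc1* went from 40.5% of the pair's level per kilobase in the controls to 42.4% in the mutants. *Smarce1*, which binds DNA through an HMG domain, had means of 141.1 and 142.6. *Actl6a*, an actin-related subunit of BAF and of INO80-type complexes, had means of 51.5 and 49.3, a log2 ratio of -0.06.

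Among the SMARCD paralogs, which link the complex to transcription factors, *Smarcd1* had the lower mean in the mutants (55.8 in the controls, 51.9 in the mutants) and *Smarcd2* the higher one (44.9 and 47.9). *Smarcd3*, known from heart and muscle, had means of 23.5 and 23.6. By level per kilobase the 3 genes held 44.7%, 40.4% and 14.8% in the controls and 41.8%, 43.3% and 14.9% in the mutants, so that *Smarcd1* led in controls and *Smarcd2* in mutants. With no length correction *Smarcd1* led in both groups. The difference was 2.93 percentage points for *Smarcd1*. In GENCODE vM21 the exons of other genes cover 48.2% of the *Smarcd3* exons, 12.7% of the *Smarcd1* exons and 11.6% of the *Actl6a* exons, and strand-specific counting is not given in the sources used here, so these values are uncertain.

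Of the 12 variant subunits, 4 had the higher mean in mutants and 8 the lower, with a median log2 ratio of -0.06. Those of the DPF family, together with *Phf10*, occupy a position of the complex that reads histone tails, and in the developing brain *Phf10* gives way to *Dpf1* and *Dpf3* as neurons form. In the incisor *Dpf2* held 91.4% of the level per kilobase of the 3 DPF genes in controls and 92.8% in mutants. Its means were 110.1 and 102.2, a log2 ratio of -0.11. *Dpf1* (chromosome 7, 29303951 to 29318243) had means of 3.58 in controls and 2.94 in mutants. *Dpf3* (chromosome 12, 83213745 to 83487716) had means of 3.90 and 2.87. Both low paralogs had the lower mean in the mutants, with log2 ratios of -0.28 (interval of counting error -0.48 to -0.08) and -0.44 (-0.64 to -0.24). These means rest on about 412 and 450 reads over the 3 control libraries, and among genes with a mean from 1 to under 10 a ratio at least as far from 0 as that of *Dpf3* was found for 20.6% and as that of *Dpf1* for 36.6%.

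The DPF genes spanned a 25.5-fold range of level per kilobase in the controls, the widest of the paralog groups compared, and the bases before their starts are shown for that reason, with each CG dinucleotide in capitals. They are RefSeq promoter sequences on GRCm38.p6, 5′ to 3′ on the strand of the gene, limited to bases outside the GENCODE gene: *Dpf1* at chr7:29303755-29303950 on the plus strand, *Dpf2* at chr19:5913011-5913121 on the minus strand and *Dpf3* at chr12:83487737-83487986 on the minus strand.
Dpf1: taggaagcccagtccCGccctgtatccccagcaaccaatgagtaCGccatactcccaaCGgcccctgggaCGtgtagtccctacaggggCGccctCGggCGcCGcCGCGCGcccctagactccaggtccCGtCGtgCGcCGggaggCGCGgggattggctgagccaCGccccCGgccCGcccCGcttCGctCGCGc
Dpf2: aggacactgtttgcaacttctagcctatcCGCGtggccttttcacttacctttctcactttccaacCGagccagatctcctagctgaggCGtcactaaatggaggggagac
Dpf3: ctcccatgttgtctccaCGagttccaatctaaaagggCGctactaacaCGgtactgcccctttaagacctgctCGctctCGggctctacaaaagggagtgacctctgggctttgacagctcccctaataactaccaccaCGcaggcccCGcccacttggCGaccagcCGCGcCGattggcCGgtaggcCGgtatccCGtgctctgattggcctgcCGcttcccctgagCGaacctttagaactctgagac

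In windows of 300 bases, from 250 before the RefSeq start to 50 after it, *Dpf1* had 39 CG dinucleotides, *Dpf2* had 20 and *Dpf3* had 17. The gene with the lowest level per kilobase of the 3 therefore had the most. Over all genes described here, 30 matched RefSeq promoters, with 33 windows. Their median was 31 CG dinucleotides, beside 18 in the 16185 windows of the genes of the series. The ratio of observed to expected CG was at least 0.6 in 29 of 33 windows (87.9%), beside 62.0% of all windows. The exceptions were 1 of the *Chd9* windows (0.111), *Smarcd2* (0.177) and the X-linked *Smarca1* (0.406) and *Atrx* (0.583).

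Motifs were searched on both strands by exact letters. The GC box (GGGCGG) was present in 30 of 33 windows (90.9%) and in 58.2% of all windows. The ETS letters CCGGAA were found in 27.3% of these windows and 23.7% of all windows, the CCAAT box (CCAAT) in 30.3% and 37.2%, and the NRF1 core (GCATGCGC) in 12.1% and 4.46%. One of the 33 windows held the YY1 core (ATGGCGGC, 3.96% of all windows), 1 held a TATA box (TATAAA, 7.87% of all windows) and none held the cAMP response element (TGACGTCA, 2.72% of all windows). The GC box, the ETS letters, the NRF1 core, the YY1 core and the cAMP response element each hold a CG dinucleotide. Their counts are therefore not separate from the CG counts. The share of the NRF1 core rests on 4 windows.

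The PBAF form of the complex carries *Pbrm1*, *Phf10* and *Brd7*. *Pbrm1*, whose bromodomains read acetylated histones, was the most abundant variant subunit per kilobase of exons, at 26.2 in the controls, and had means of 231.4 and 220.4. That rank depends on the length used, since with the longest transcript *Dpf2* stood higher. *Phf10* had means of 79.8 in controls and 85.6 in mutants, a log2 ratio of 0.10, and *Brd7* had 61.5 and 65.4, a log2 ratio of 0.09. *Brd9*, which marks the non-canonical form of the complex, had means of 44.8 and 43.5. The PBAF subunits did not share a direction, with *Pbrm1* at -0.07.

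*Ss18* and *Ss18l1* fill one position, and *Ss18l1* is the form known from neurons. The means of *Ss18* were 113.5 in controls and 108.2 in mutants. *Ss18l1* had 11.6 and 11.8, and its share of the level per kilobase was 18.2% and 19.1%. The BCL7 proteins are small subunits that bind the ATPase module. *Bcl7a* (chromosome 5, 123343834 to 123374992) had means of 45.5 in controls and 51.1 in mutants, whereas *Bcl7c* (chromosome 7, 127661456 to 127708933) had 48.4 and 42.4. Their log2 ratios of 0.17 (interval of counting error 0.12 to 0.22) and -0.19 (-0.25 to -0.14) lay on opposite sides, with *Bcl7b* between them at -0.05. Among genes at or above a mean of 10, 24.4% lay at least as far from 0 as *Bcl7a* and 20.3% as *Bcl7c*. The share of *Bcl7a* among the 3 per kilobase of exons was 24.6% in controls and 28.4% in mutants. It was 34.1% and 38.5% with the longest transcript, and 40.2% and 45.6% without a length correction.

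**Figure D3:**
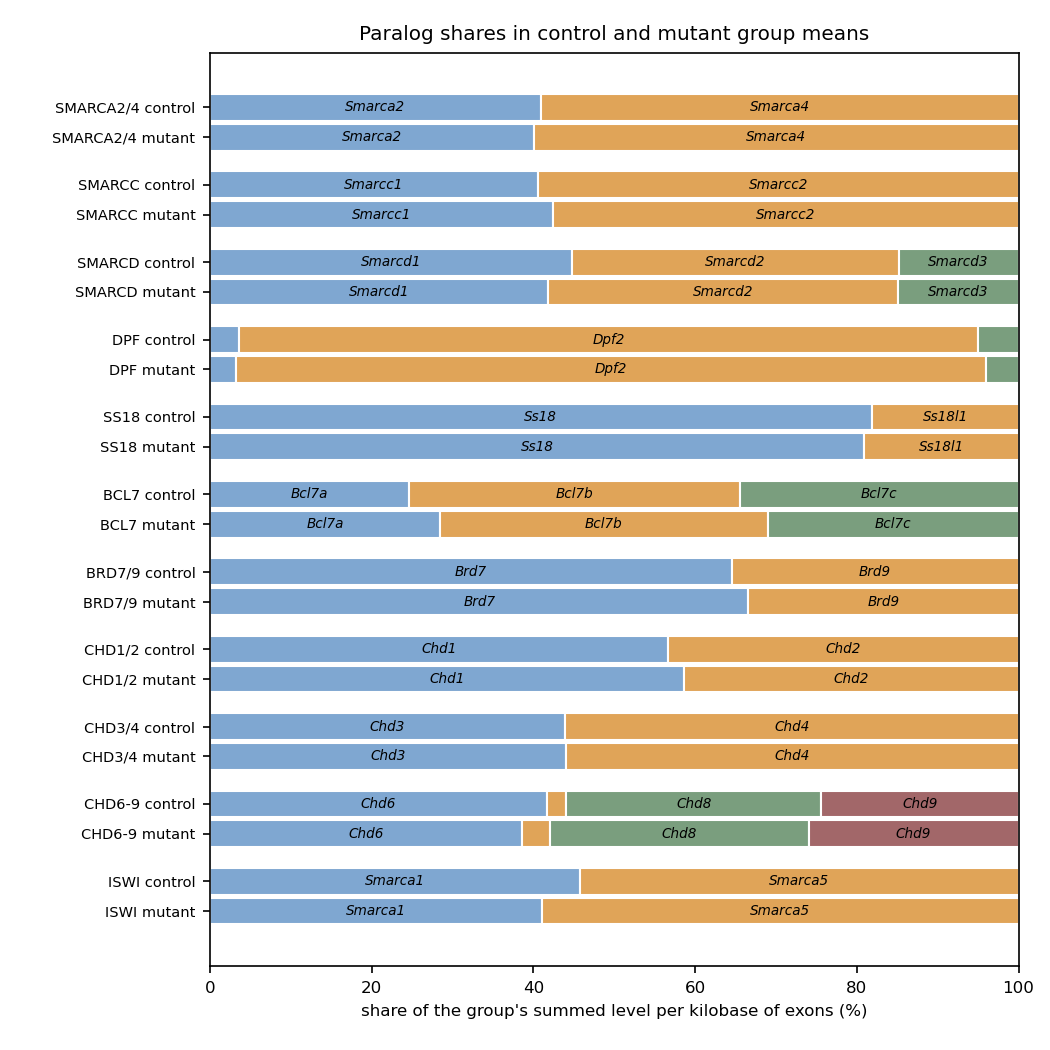
Share of each paralog in the summed level per kilobase of exons of its group (%), from the authors' group means in controls and mutants. Within each pair of bars the boundaries moved by at most 4.65 percentage points, for *Smarca1* and *Smarca5*. Unlabelled segments are *Dpf1* (left) and *Dpf3* (right) in the DPF bars and *Chd7* in the CHD6-9 bars.

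The CHD proteins are ATPases with paired chromodomains. Of the 8 measured, 4 were higher and 4 lower in mutants, with log2 ratios from -0.19 to 0.41. *Chd4* (chromosome 6, 125095981 to 125130591) and *Chd3*, the ATPases of the NuRD complex, had the highest levels per kilobase of all 37 genes, 56.8 and 44.5 in the controls. *Chd4* had means of 455.7 in controls and 460.5 in mutants. Those of *Chd3* were 376.0 and 381.8. Their shares of the pair differed by 0.124 percentage points between the groups, and in every other paralog group compared at least one share differed by more. *Chd1*, which binds methylated histone tails of active promoters, had means of 87.2 and 86.3, while *Chd2* had 109.5 and 99.9, a log2 ratio of -0.13. Exons of other genes cover 19.3% of the *Chd2* exons.

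*Chd7* had the highest log2 ratio of the 37 genes, although that of *Dpf3* lay farther from 0. Mutated in CHARGE syndrome and needed in neural crest, it lies on chromosome 4 from 8690406 to 8867659. Its means were 9.36 in controls and 12.4 in mutants, a log2 ratio of 0.41 (interval of counting error 0.30 to 0.52). Among genes at or above a mean of 10, 6.27% lay at least as far from 0. *Chd7* is among those genes only through its mutant mean, so nothing is read from this share. Per kilobase *Chd7* was the scarcest of the 4 genes of its subfamily, with 2.40% of their level in controls and 3.37% in mutants.

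*Chd6* (chromosome 2, 160946978 to 161109075), the most abundant of the 4 per kilobase, lay on the other side, with means of 225.6 in controls and 197.5 in mutants and a log2 ratio of -0.19 (interval of counting error -0.22 to -0.17). Among genes at or above a mean of 10, 20.4% lay at least as far from 0 as *Chd6*. *Chd8*, linked to autism, had means of 147.8 and 141.7. *Chd9* had 160.0 and 160.8. The share of *Chd6* among the 4 was 41.7% and 38.6%.

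The ISWI ATPases space nucleosomes evenly. *Smarca5* (SNF2H) had means of 155.6 in controls and 164.4 in mutants, a log2 ratio of 0.08. *Smarca1* (SNF2L; chromosome X, 47809368 to 47892974) had 103.2 and 90.2, a log2 ratio of -0.19 (interval of counting error -0.23 to -0.16). Among genes at or above a mean of 10, 20.1% lay at least as far from 0 as *Smarca1*. *Smarca5* made up 54.3% of the pair per kilobase in controls and 58.9% in mutants, the widest difference in shares per kilobase among the groups compared. Without a length correction the widest was that of *Bcl7a*, with 40.2% and 45.6%. The groups also differed in sex-linked transcripts: the means of *Xist* were 3368 and 813.8, and the Y-linked *Ddx3y* stood at 65.3 in mutants, while its control mean of 0.0259 is the lowest of any gene there and was read as 0 reads. Sex is not among the labels, so sex and genotype cannot be told apart. *Atrx*, the other X-linked gene (chromosome X, 105797615 to 105929403), had means of 389.1 and 377.6, a log2 ratio of -0.04.

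The INO80-type ATPases exchange histone variants and are large proteins with many partners. *Ino80* itself had means of 52.6 in controls and 54.1 in mutants. *Srcap* (chromosome 7, 127511983 to 127561219), which deposits a variant of histone H2A, had 210.3 and 188.3, a log2 ratio of -0.16. *Ep400*, the ATPase of the TIP60 complex, had 147.2 and 137.6. Exons of other genes cover 65.0% of the *Srcap* exons, so its value is uncertain. *Hells*, which opens heterochromatin for DNA methylation and is abundant in dividing cells, had means of 36.1 and 38.1, a log2 ratio of 0.08.

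The partners of these ATPases also had median log2 ratios near 0. For the 12 NuRD partners the median was 0.03, 9 had the higher mean in mutants and 3 the lower, and none was past 1.5-fold. *Mbd2*, which binds methylated DNA, had the largest ratio of them, with means of 54.8 in controls and 69.3 in mutants and a log2 ratio of 0.34. The 9 ISWI partners had a median of -0.05. One of them was over 1.5-fold lower, *Cecr2*, with means of 2.37 and 1.54, named because it was the single gene past that fold. The 27 partners in the INO80, SRCAP and TIP60 complexes had a median of -0.02, with 11 higher and 16 lower and none past 1.5-fold, and *Actr6* and *Ruvbl1* at -0.18 and 0.16. The 14 other ATPases of the SNF2 family had a median of 0.01 and the 4 partners of ATRX and HELLS a median of 0.00, both without a gene past 1.5-fold.

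Of 7 further BAF subunits, the ARID paralogs stayed close to 0, with log2 ratios of 0.00 for *Arid1a* and 0.03 for *Arid2*. The zinc finger subunits *Bcl11b* and *Bcl11a* lay above every BAF subunit described here. *Bcl11b* had means of 33.6 in controls and 52.6 in mutants (log2 ratio 0.65) and *Bcl11a* had 77.5 and 106.3 (log2 ratio 0.46). *Bcl11b* was the single gene of the 7 over 1.5-fold higher.

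By their medians, mitosis genes and markers of the dental tissues lay farther from 0 than the remodeler genes. The mutant mean was the higher one for 15 of 15 mitosis genes. Their median log2 ratio was 0.43, led by *Ccnb2*, *Cenpf* and *Ccnb1* at 0.71, 0.65 and 0.63, and 4 were over 1.5-fold higher. The 17 DNA replication genes had a median of 0.01. All 11 dental epithelium markers were over 1.5-fold higher, although the dissected tissue is described as mesenchymal, and their summed mean was 1749 in controls and 10574 in mutants. Most of that sum came from *Amelx* (361.9 and 3946), *Ambn* (617.4 and 3360) and *Enam* (135.8 and 1983). The median log2 ratio of the 11 was 1.15 and the lowest was 0.75. Of 14 dental mesenchyme markers, 12 had the lower mutant mean and the median was -0.26. Past 1.5-fold were 3 on the lower side (*Dmp1*, *Gli1* and *Barx1*) and 2 on the higher side, *Sfrp2* with means of 366.2 and 603.8 and *Igfbp6* with 6.04 and 9.60. *Barx1* had a mean under 1 in both groups. *Gli1*, whose locus carries the Cre in the mutants, had means of 106.4 and 46.1. The part of these cell types in the ratio of *Chd7* or of any other remodeler gene was not tested.

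For the low neuronal and muscle forms, the summed mean of 6 measured neuron markers was 57.8 in controls and 58.8 in mutants, and that of 7 measured striated muscle markers was 6.44 and 4.54, with medians of -0.26 and -0.03. The neuron markers were split, with 2 higher and 4 lower in mutants. *Tubb3* had means of 32.0 and 42.0 and *Gap43* had 19.7 and 11.5, while past 1.5-fold were *Gap43* on the lower side and *Nefl*, with a mean under 1, on the higher side. Of the muscle markers 2 were higher and 5 lower. Over 1.5-fold lower were 3 of them and over 1.5-fold higher was 1, and no muscle marker reached a mean of 10 in either group. Among the other lists, 6 of 6 leukocyte markers were higher with a median of 0.21, and the medians were 0.05 for 5 endothelial and -0.07 for 6 Schwann cell markers. Their part in the ratios of *Dpf1* and *Dpf3* was not tested.

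**Figure D4:**
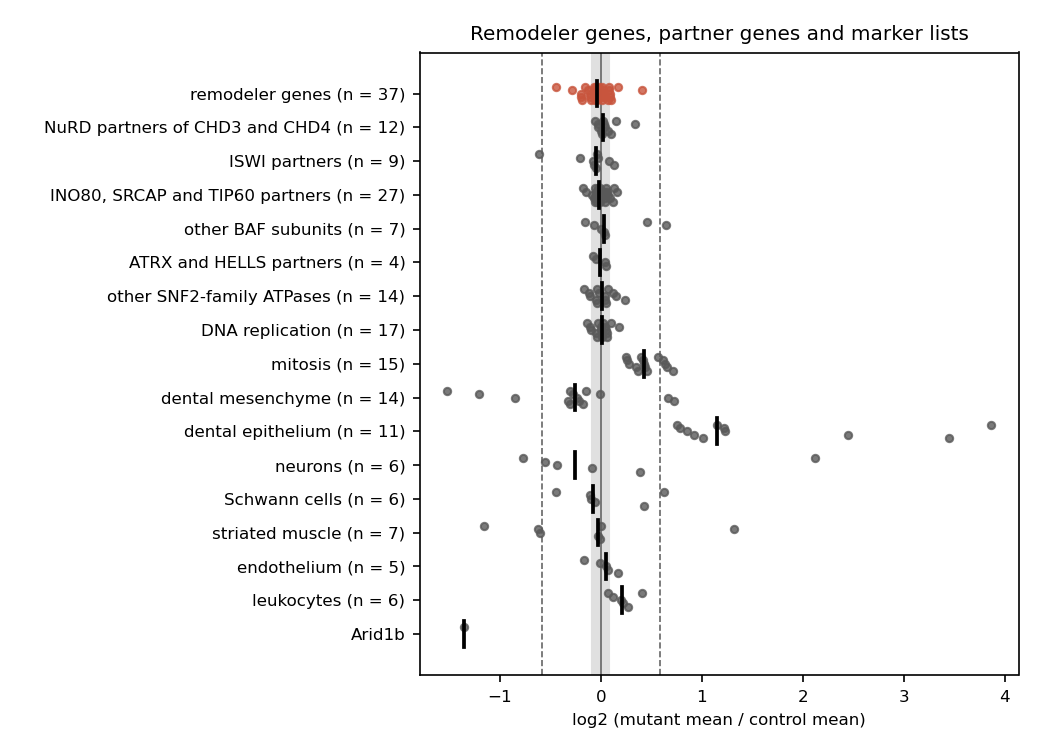
Log2 ratio of the mutant over the control mean for the remodeler genes (top row), their partners, markers of the cell cycle and of other cell types, and *Arid1b*. Each point is a gene, black bars are medians, the grey band is the range between the quartiles of genes at or above a mean of 10 and dashed lines mark 1.5-fold. Most remodeler genes and partners lie near 0, with *Cecr2* and *Bcl11b* past 1.5-fold among the partners and other BAF subunits, whereas the mitosis and dental epithelium genes lie to the right.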

How the data were processed

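Bulk RNA-seq of the proximal incisor was analysed in 3 control and 3 *Arid1b* mutant mice. Per the methods, trimming, alignment (mm10) and the authors' own comparison were done with Partek Flow. TopHat2 2.0.8 is named in the submitters' processing notes. The counting, annotation and normalization are not given in the sources used here. The deposited values are a normalized signal: the authors' group mean per gene, and a summary over genes per library. The table also holds the authors' p-value, FDR, ratio and signed fold change, which were not used. Without values of single mice no test could be run, and the limma fit planned for such values was not made.

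Log2 ratios were computed from the group means without a pseudocount. The signal was read as the number of reads plus 1 times a factor per library, an inference from the lowest values and the equal upper quartiles (44.57 to 44.58). Reads and 95% counting intervals rest on it and cover counting error only. They were run on simulated data built with the same reading, which cannot show whether the deposited signal follows it. Exon lengths and coordinates are from GENCODE vM21 (GRCm38, the build also called mm10), which matched 18840 genes. Promoters are from RefSeq on GRCm38.p6.

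Genes and lists were chosen with earlier results of these data known. Named are all genes found, *Arid1b*, at most 3 genes per further list by size of ratio with a mean of at least 10 in a group, and sex-linked transcripts. *Cecr2*, *Barx1*, *Igfbp6*, *Nefl* and the ARID paralogs were named after their values were seen. Alternatives were other folds, pseudocounts, scalings, filters and lengths. Python 3.11.15, numpy 2.4.6, pandas 2.3.3 and matplotlib 3.10.9 were used.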

Additional observations from a re-analysis of the deposited data

How the results depend on the processing

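None of the 37 genes was past a fold of 2, and none was past 1.5-fold in either direction with a pseudocount of 0.1 or 1, a centring on the median gene, a rescaling to the same summed signal, a minimum mean of 1 or 10, or without the X-linked genes. Only the centring and the rescaling could have added a gene. A higher fold, a pseudocount or the removal of genes cannot do so when none passed, so those outcomes were fixed in advance. A fold of 1.2 gave 1 higher and 2 lower genes, and another fold between 1.2 and 1.5 gave 1 and 1, as a lower fold admits more genes. The shares over all genes were not computed at these 2 folds, so nothing is read from these counts. Rescaling both groups to the same sum moved the median log2 ratio from -0.0367 to 0.0239 and the number of genes with the higher mean in the mutants from 15 to 23. That rescaling adds the same amount to every gene and moved 31 of 37 log2 ratios past their counting intervals, while pseudocounts and centring moved none. Shares within paralog groups depend on the length used: 19 of 27 moved by more than 1 percentage point with the longest transcript in place of all exons, and 23 of 27 without a length correction. With the longest transcript *Smarca2* and *Chd2* led their pairs in both groups, whereas *Smarca4* and *Chd1* led them with all exons. Leaving out single mice was not possible with group means. No pairing of control and mutant mice is given in the labels, and no paired analysis was made.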
